A study of Mus musculus with 18 samples.

Results

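Transcripts of genes that mark lymphocytes were read in 18 libraries of macrophages sorted from the brains of bone marrow chimaeras. The genes are Cd8a, Trac, Cd3e, Cd3g, Nkg7, Ccl5 and Igkc, chosen by name with their levels in these libraries already known. Their levels and the calls given for them below are therefore a description, with no test of these genes. Of the 8 genes named, 7 stand among the 13043 genes of the count table, and Cd79a, the eighth, was not analysed here. The 7 genes all passed the filter on low counts, which kept 10597 genes.

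The recipients were wild-type C57BL6/C mice that had received lethal irradiation and then marrow carrying Ms4a3-Cre, R26-TdTomato and Cx3cr1-gfp, and cells were sorted 32 weeks later. The groups were monocyte-derived leptomeningeal macrophages (GFP+ and TdTomato+, 4 libraries), HSC-derived leptomeningeal macrophages (GFP+, 2 libraries), monocyte-derived microglia (GFP+ and TdTomato+, 4 libraries), HSC-derived microglia (GFP+, 4 libraries) and host microglia (no colour, 4 libraries), where HSC stands for haematopoietic stem cell. Host microglia came from irradiated, transplanted mice too, so that the 5 groups share both treatments. RNA of at most 100000 sorted cells a library was captured by its poly(A) tail and counted at the 3′ end with molecular identifiers. Ms4a3-Cre acts in granulocyte and monocyte progenitors and marks their progeny, so that TdTomato records passage through that stage. GFP was read from the Cx3cr1 locus, which some cytotoxic T cells and natural killer (NK) cells also transcribe; the sources used here do not name the antibodies of the sort.

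Total counts per library lay between 154727 and 2440234. Levels are CPM, counts scaled to a common library size by the trimmed mean of M values (TMM), and 3 counts corresponded to between 1.05 and 23.0 CPM. The 3 shallow libraries were HSC-derived microglia 3 (264795 counts), HSC-derived microglia 4 (317872) and HSC-derived leptomeningeal 2 (154727), in each of which a gene at 0 may have been missed. The 12 genes of the macrophage identity list, C1qa and C1qb among them, were detected in all 18 libraries and summed to between 29519 and 60570 CPM. Leptomeningeal markers such as Mrc1 and Pf4 (10 genes) summed to 6197 to 12462 CPM in leptomeningeal libraries of donor origin, 2171 to 3219 CPM in donor-derived microglia and 41.3 to 50.7 CPM in host microglia. Microglia markers such as P2ry12 (8 genes) summed to 2484 to 3948 CPM in leptomeningeal libraries, 8496 to 9840 CPM in donor-derived microglia and 15734 to 17941 CPM in host microglia.

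As background, T cells read antigen with the T cell receptor, whose alpha chain ends in the constant region that Trac encodes. The receptor signals through the CD3 chains, Cd3e and Cd3g among them, and Cd8a encodes a chain of the coreceptor of cytotoxic T cells, which some dendritic cells share. Nkg7 encodes a membrane protein of the cytotoxic granules of NK cells and cytotoxic T cells. Ccl5 encodes a chemokine that draws T cells and monocytes and that activated T cells, NK cells and also macrophages make. Igkc encodes the constant region of the immunoglobulin kappa light chain of B cells and plasma cells, and Cd79a a signalling chain of the B cell receptor. In the brain, T cells are found mostly at the borders, the leptomeninges included, and few enter the healthy parenchyma.

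The genes sit on 5 mouse chromosomes in GENCODE vM21 (GRCm38, which is mm10, the build the labels give). Cd8a lies at chr6:71373427-71379173 on the plus strand and Igkc at chr6:70726435-70726966, also plus. Cd3e (chr9:44998740-45009627) and Cd3g (chr9:44969572-44980431) lie on the minus strand with Cd3d between them, 1354 bases from Cd3g and 11400 bases from Cd3e. Trac lies at chr14:54220521-54224206 (plus), Nkg7 at chr7:43437073-43438249 (plus) and Ccl5 at chr11:83525778-83530518 (minus). Gm48719 and Gm48720 overlap Cd3e, and Gm30211 overlaps Igkc; none of these 3 genes has a row in the count table, and whether the counting used strand is not given in the sources used here.

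RefSeq promoter sequences (GRCm38.p6) matched 4 of the 7 genes, and they are shown because the levels of these genes moved together across libraries. Each line gives the bases before the RefSeq start, 5′ to 3′ on the gene's strand, without bases that GENCODE places inside the gene. Capitals mark matches on either strand to letters that bind Runx factors (TGTGGT), Ets factors (AGGAAG) or E proteins (CAGNTG), families that act in lymphocytes. The windows are chr6:71373177-71373426 for Cd8a, chr9:45009628-45009861 for Cd3e, chr9:44980432-44980681 for Cd3g and chr7:43436888-43437072 for Nkg7.
Cd8a: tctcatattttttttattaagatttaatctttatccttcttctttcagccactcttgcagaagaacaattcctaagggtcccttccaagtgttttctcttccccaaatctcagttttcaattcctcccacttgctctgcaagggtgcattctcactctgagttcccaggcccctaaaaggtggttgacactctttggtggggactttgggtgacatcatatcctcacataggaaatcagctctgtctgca
Cd3e: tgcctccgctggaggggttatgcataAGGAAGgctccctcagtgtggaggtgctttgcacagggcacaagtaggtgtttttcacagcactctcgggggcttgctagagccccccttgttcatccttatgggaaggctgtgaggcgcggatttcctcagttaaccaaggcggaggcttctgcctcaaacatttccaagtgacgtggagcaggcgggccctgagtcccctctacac
Cd3g: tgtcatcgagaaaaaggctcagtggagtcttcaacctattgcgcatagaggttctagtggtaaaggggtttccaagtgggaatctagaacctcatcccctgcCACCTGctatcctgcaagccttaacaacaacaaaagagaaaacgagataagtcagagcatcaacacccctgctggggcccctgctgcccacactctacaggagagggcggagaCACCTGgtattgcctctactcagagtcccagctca
Nkg7: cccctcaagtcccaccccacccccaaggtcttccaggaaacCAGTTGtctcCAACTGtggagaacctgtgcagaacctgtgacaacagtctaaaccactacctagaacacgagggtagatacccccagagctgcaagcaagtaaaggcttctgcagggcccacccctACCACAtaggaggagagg
Over the 250 bases before the start, Nkg7 held 1 Runx match, 1 Ets match and 2 E-box matches, Cd3g held 2 E-box matches, Cd3e held 2 Ets matches and Cd8a held none of the 3. One Ets match each of Nkg7 and Cd3e reached into the annotated gene and is not printed. Among 32851 RefSeq promoters of that length, 14.0% held the Runx letters, 29.5% the Ets letters and 44.8% the E-box letters, so that single matches are common; a match is a description of the letters only.

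The 4 genes of the T cell receptor complex and its coreceptor had their highest levels in leptomeningeal libraries and their lowest in host or HSC-derived microglia. Trac read 53.1, 29.5, 51.4 and 71.6 CPM in monocyte-derived leptomeningeal macrophages and 35.9 and 15.3 CPM in HSC-derived ones. In microglia it read 9.74, 8.23, 10.5 and 9.52 CPM in the monocyte-derived group, 4.23, 13.7, 0 and 15.6 CPM in the HSC-derived group and 4.98, 2.71, 1.05 and 2.66 CPM in host libraries. The monocyte-derived microglia libraries lay close together and all above host, whereas the HSC-derived ones spread across both. The group means were 51.4 ± 17.2, 25.6 ± 14.5, 9.49 ± 0.926, 8.36 ± 7.46 and 2.85 ± 1.62 CPM in that order (SD, n = 4, 2, 4, 4 and 4). In such bulk libraries fewer cells of a type and less RNA per cell cannot be told apart.

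Cd3e, the epsilon chain of CD3, read 15.4, 10.9, 12.7 and 26.1 CPM in monocyte-derived leptomeningeal macrophages and 15.4 and 23.0 CPM in HSC-derived ones. Monocyte-derived microglia held 8.02, 1.65, 2.79 and 4.76 CPM, HSC-derived microglia 4.23, 8.20, 0 and 0 CPM and host microglia 0.712, 0.452, 0.349 and 0 CPM. The 2 leptomeningeal groups overlapped, as did the 2 donor-derived microglia groups, and every leptomeningeal library lay above every microglia library. Host microglia held 3 counts of Cd3e in all, and the zeros of HSC-derived microglia fell in the shallow libraries 3 and 4.

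Cd3g, the gamma chain of CD3, read 12.6, 7.64, 18.4 and 27.4 CPM in monocyte-derived leptomeningeal macrophages and 15.4 and 7.67 CPM in HSC-derived ones. It read 2.29, 2.47, 5.57 and 8.73 CPM in monocyte-derived microglia, 0 CPM in each of the 4 HSC-derived microglia libraries, and 0.712, 0.452, 0.698 and 0 CPM in host microglia. Cd3g was the 1 gene of the 7 with no count in a whole group. At the depth of HSC-derived microglia, a count of 0 over the group allows up to 1.58 CPM, above the 4 host libraries and below the lowest monocyte-derived library.

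Cd8a read 67.1, 73.2, 60.9 and 132 CPM in monocyte-derived leptomeningeal macrophages and 61.5 and 46.0 CPM in HSC-derived ones. Microglia held 16.6, 30.5, 21.6 and 22.2 CPM in the monocyte-derived group, 11.3, 24.6, 0 and 0 CPM in the HSC-derived group and 4.27, 4.07, 3.49 and 5.33 CPM in host. The leptomeningeal groups met at their edges, and both lay above all microglia libraries. Host libraries were the tightest group, at 4.29 ± 0.767 CPM (SD, n = 4). Counts of Cd8b1, the partner chain of Cd8a in the T cell coreceptor, can be set beside it. There were 0.881 to 1.37 Cd8a counts for each Cd8b1 count in monocyte-derived leptomeningeal libraries, 4.5 (36 against 8) and 1 (6 against 6) in the HSC-derived ones, 1.08 to 1.81 in monocyte-derived microglia, 2 and 1.5 in HSC-derived microglia 1 and 2, where libraries 3 and 4 had neither, and 0.714 to 3 in host microglia.

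Nkg7 read 92.2, 50.2, 119 and 150 CPM in monocyte-derived leptomeningeal macrophages and 99.1 and 61.3 CPM in HSC-derived ones. It read 25.8, 21.4, 24.4 and 19.0 CPM in monocyte-derived microglia, 16.9, 34.2, 0 and 0 CPM in HSC-derived microglia and 1.42, 5.43, 5.93 and 15.3 CPM in host microglia. Host library 4 came close below the lowest monocyte-derived microglia library, and the other host libraries lay far lower. The group means were 103 ± 42.3, 80.2 ± 26.7, 22.7 ± 3.02, 12.8 ± 16.3 and 7.03 ± 5.88 CPM in the same order (SD, n = 4, 2, 4, 4 and 4).

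Ccl5 was detected in all 18 libraries. Monocyte-derived leptomeningeal macrophages held 579, 607, 612 and 893 CPM and HSC-derived ones 453 and 169 CPM. Monocyte-derived microglia held 138, 148, 187 and 177 CPM, HSC-derived microglia 104, 217, 56.0 and 62.3 CPM and host microglia 65.5, 79.6, 120 and 60.6 CPM. The monocyte-derived leptomeningeal libraries stood above all others, and the HSC-derived microglia straddled the host range. Host Ccl5 averaged 81.5 ± 27.2 CPM (SD, n = 4), so that the chemokine was well above the floor in the group where the T cell receptor genes were near it.

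Igkc was read mostly in 1 group. It stood at 399, 79.7, 541 and 526 CPM in monocyte-derived leptomeningeal macrophages, and 15.4 and 0 CPM in HSC-derived ones. Monocyte-derived microglia held 2.87, 3.29, 16.0 and 3.97 CPM, HSC-derived microglia 0, 1.37, 0 and 0 CPM and host microglia 0.712, 0, 0 and 0 CPM. The 4 monocyte-derived leptomeningeal libraries lay above all 14 others, and within that group library 2 held the least. HSC-derived microglia and host microglia held 1 count each.

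**Figure D1:**
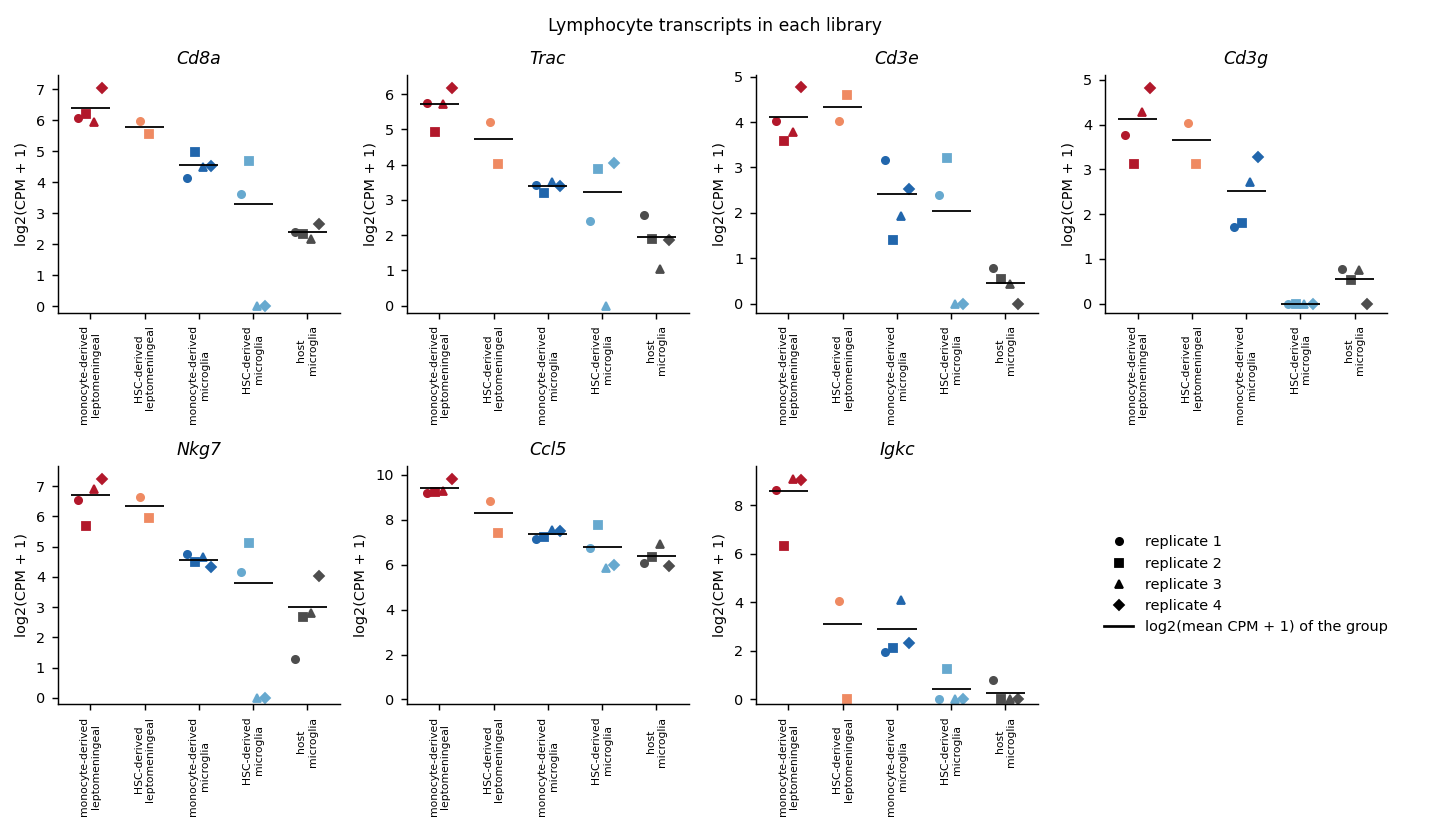
Level of each of the 7 genes in each library as log2(CPM + 1), one panel a gene, with points for libraries, marker shapes for replicate numbers and lines for log2 of the group mean plus 1. The means of both leptomeningeal groups lie highest for every gene, host microglia lie low, and Igkc is high in monocyte-derived leptomeningeal libraries alone.

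The order of the group means was the same for Cd8a, Trac, Nkg7, Ccl5 and Igkc: monocyte-derived leptomeningeal, HSC-derived leptomeningeal, monocyte-derived microglia, HSC-derived microglia and host microglia. Cd3e averaged 16.3 ± 6.81 CPM in monocyte-derived and 19.2 ± 5.39 CPM in HSC-derived leptomeningeal macrophages (SD, n = 4 and 2), the reverse order, with a gap smaller than either spread. For Cd3g host microglia (0.466 ± 0.332 CPM) came before HSC-derived microglia, which were at 0. Neighbours in the order often overlapped: HSC-derived and host microglia did so for every gene, and both leptomeningeal groups did so for Cd8a, Trac, Cd3e, Cd3g and Nkg7. Without the shallow libraries, HSC-derived microglia averaged 17.9 CPM for Cd8a, 8.95 for Trac, 6.21 for Cd3e, 25.5 for Nkg7 and 161 for Ccl5 (n = 2), and Cd3g stayed at 0 in both. Nkg7 and Cd3e then averaged higher in HSC-derived than in monocyte-derived microglia (22.7 and 4.30 CPM, n = 4), so that this step of the order turned for both. The 1 HSC-derived leptomeningeal library left held Cd3e at 15.4 CPM, below the monocyte-derived mean of 16.3 CPM, so that this reversed step turned as well.

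Leptomeningeal macrophages against microglia of the same origin asked where in the brain the transcripts were found. Among monocyte-derived cells all 7 genes were called higher in the leptomeninges, where a call is an adjusted p under 0.05 in edgeR's quasi-likelihood test with Benjamini-Hochberg adjustment over 10597 genes; 19% of all genes were called higher in that comparison. The log2 fold changes were 1.90 for Cd8a, 2.45 for Trac, 1.85 for Cd3e, 1.84 for Cd3g, 2.20 for Nkg7, 2.05 for Ccl5 and 5.87 for Igkc. Libraries of the 2 groups did not overlap for 6 of the 7, a state shared by 19.7% of all genes in this direction, and for Cd3g leptomeningeal library 2 (7.64 CPM) lay below microglia library 4 (8.73 CPM). These calls held under every alternative setting tried. Scaling by library totals alone lowered the median of all genes from -0.04 to -0.34 on the log2 scale. It lowered the 7 fold changes to between 1.55 and 5.58.

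Among HSC-derived cells 3 of the 7, Cd8a, Trac and Cd3g, were called higher in the leptomeninges than in microglia, against 5.75% of all genes. Cd8a differed by 2.10 and Trac by 1.79 on the log2 scale. Cd3g, with no count in the microglia, was at least 8.82-fold higher, taking 3 counts over that group. Cd3e (1.89), Nkg7 (2.24) and Ccl5 (1.48) had similar fold changes on the log2 scale and were not called, and Igkc had 9 counts against 1, a ratio per scaled count of 23.8 with an exact 95% interval of 3.30 to 1044. Leptomeningeal libraries lay above all microglia libraries for Cd8a, Cd3e, Cd3g and Nkg7, as 10.6% of all genes did. The calls rested on few libraries: none of the 7 was called without HSC-derived leptomeningeal library 1, which held 9 of the 10 Cd3g counts, Cd3g alone without microglia library 1, and Ccl5, Cd3g, Cd8a, Nkg7 and Trac without microglia library 2. Trac lost its call in 6 of 12 alternatives, DESeq2, a replicate block, library totals alone and leaving out microglia library 3 among them, with log2 fold changes from 0.69 to 2.34. DESeq2 called Ccl5, Cd3g, Cd8a and Nkg7, and the block Cd3g, Cd8a and Igkc. Without microglia library 1 or 2 the bound for Cd3g was 5.52 or 5.42, and without leptomeningeal library 1 it was 4.84, from 1 count. The Igkc ratio was 14.9 without microglia library 1 (2.06 to 653), and the 1 Igkc count in microglia was in library 2.

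Donor-derived microglia were then set against host microglia, and the 2 comparisons share the host libraries. In monocyte-derived microglia 6 of the 7 genes were called higher, against 15.1% of all genes. Log2 fold changes were 2.40 for Cd8a, 1.86 for Trac, 2.98 for Cd3g, 1.73 for Nkg7 and 0.97 for Ccl5. Cd3e had 26 counts in monocyte-derived and 3 in host microglia, a ratio of 12.2 per scaled count (exact 95% interval 3.75 to 63.1). Igkc, the gene not called by edgeR, had 37 counts and 1 count, a ratio of 52.2 with an interval of 8.81 to 2117; DESeq2 and the fit with a replicate block called it, and the block did not call Ccl5. Monocyte-derived library 3 held 23 of the 37 Igkc counts, and without it the ratio was 26.5 (4.03 to 1119.5). Without host library 3 it was 33.5 (5.65 to 1357), and the 1 host count was in library 1. Libraries of the 2 groups did not overlap for any of the 7, as for 19.2% of all genes in this direction.

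Calls on the 4 T cell receptor and coreceptor genes in monocyte-derived microglia held under the 14 alternatives tried, which left Cd8a between 2.24 and 2.54 and Cd3g between 2.55 and 3.26 on the log2 scale. Nkg7 lost its call in 6 of them, without host library 1, 2 or 3 or monocyte-derived library 1, 2 or 3, with log2 fold changes from 1.50 to 2.26 over all 14. Ccl5 lost its call in 10, without any 1 monocyte-derived library or host library 1, 2 or 4 among them, with log2 fold changes from 0.87 to 1.25.

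In HSC-derived microglia 3 of the 7, Cd8a, Trac and Cd3e, were called higher than in host microglia, against 16.2% of all genes. The log2 fold change was 1.66 for Cd8a and 1.77 for Trac, and Cd3e had 9 counts against 3, a ratio of 12.6 per scaled count (exact 95% interval 3.15 to 72.6). Nkg7 (1.46) and Ccl5 (0.57) were not called, Igkc had 1 count in either group, and Cd3g had no count against 4 in host. No gene of the 7 had HSC-derived libraries all above host, a pattern found in 12% of all genes. HSC-derived library 2 carried the highest Cd8a, Cd3e, Nkg7 and Ccl5 of its group, and without it none of the 7 was called. Without it the Cd3e ratio was 6.86 (0.919 to 51.2). Without host library 3 only Cd3e was called, and scaling by library totals alone, which shifted the median of all genes by -0.28, left Cd3e too. Cd8a lost its call in 8 of 14 alternatives, without any 1 host library, without HSC-derived library 1 or 2, with no filter and with library totals alone (log2 fold changes from 0.68 to 2.09), and Trac in 4, without host library 3, without HSC-derived library 2 or 4 and with library totals alone (1.22 to 2.15).

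**Figure D2:**
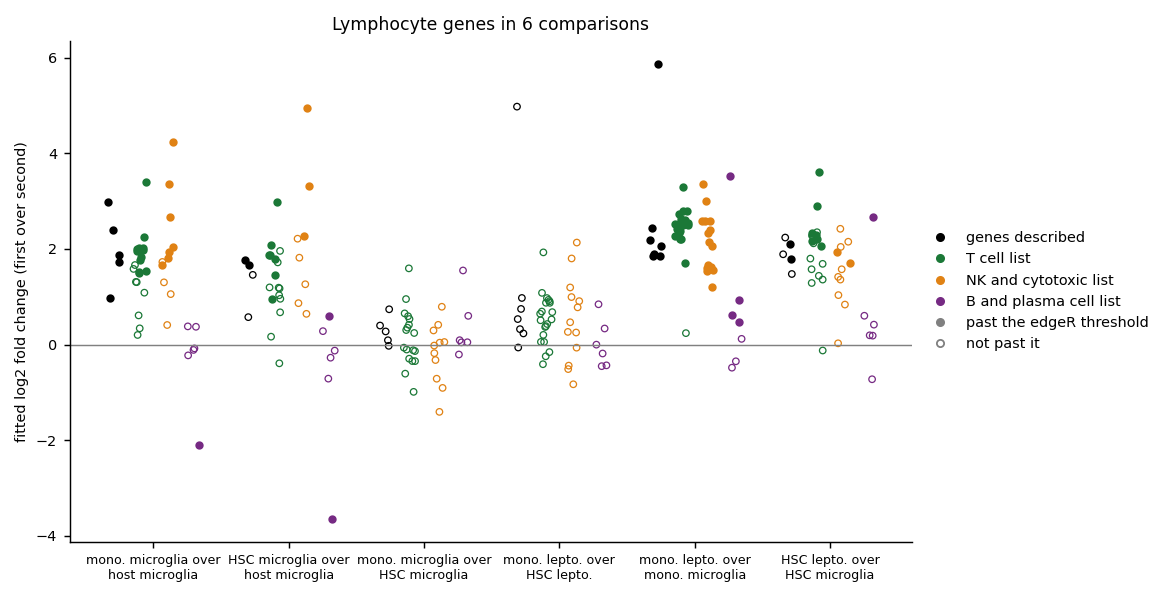
Fitted log2 fold change of the genes described (black) and of 3 lists of other lymphocyte genes in the 6 comparisons, first group over second, with filled points past the edgeR threshold; genes with 3 or fewer counts in either group are not drawn. Black, green and orange points lie mostly above 0 where donor-derived microglia are set against host and leptomeningeal macrophages against microglia, and between the 2 donor-derived origins no black, green or orange point is filled, with points on both sides of 0 in microglia and more above than below it in the leptomeninges.

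Monocyte-derived against HSC-derived cells asked whether the transcripts followed the colour of the donor cell. In microglia none of the 7 was called, against 1.89% of all genes; 1 had an unadjusted p under 0.05 and DESeq2 called 0. Log2 fold changes were 0.74 for Cd8a, 0.09 for Trac, -0.03 for Cd3e, 0.27 for Nkg7 and 0.40 for Ccl5, and the libraries of both groups overlapped for these 5 genes. Cd3g, with 26 counts in monocyte-derived and none in HSC-derived microglia, was at least 2.90-fold higher, and Igkc had 37 counts against 1, a ratio of 12.4 (exact 95% interval 2.09 to 503). Without HSC-derived library 1 or 2 the bound for Cd3g was 1.82 or 1.78. The Igkc ratio was 6.29 without monocyte-derived library 3 (0.956 to 266) and 7.75 without HSC-derived library 1 (1.31 to 314), and its 1 HSC-derived count was in library 2. For these 2 genes the libraries did not overlap, as for 5.05% of all genes in that direction.

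Between the leptomeningeal groups none of the 7 was called by edgeR, against 0.302% of all genes; 2 had an unadjusted p under 0.05 and DESeq2 called 1, Igkc. Log2 fold changes of monocyte-derived over HSC-derived cells were 0.53 for Cd8a, 0.74 for Trac, -0.06 for Cd3e, 0.32 for Cd3g, 0.23 for Nkg7, 0.97 for Ccl5 and 4.97 for Igkc. Igkc and Ccl5 were the 2 genes whose libraries did not overlap, as was the case for 17.2% of all genes in that direction. Igkc was called without monocyte-derived library 2, its lowest. The HSC-derived group had 2 libraries, 1 of them shallow, and a missed threshold does not show that the groups were alike.

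The make-up of the 7-gene counts also differed between groups. These are 3′ molecule counts that do not scale with gene length. Igkc made up 30.5% of them in monocyte-derived leptomeningeal macrophages (2284 of 7491, exact 95% interval 29.4 to 31.5), against 2.00% in HSC-derived ones (9 of 449, 0.921 to 3.77). It made up 2.82% in monocyte-derived microglia, 0.286% in HSC-derived microglia and 0.122% in host microglia. Without library 3 the share in monocyte-derived microglia was 1.51% (14 of 926), and the shares in HSC-derived and host microglia rest on 1 count each. The 4 T cell receptor and coreceptor genes held a narrower share, 12.5%, 19.4%, 17.6% and 14.9% in the 4 donor-derived groups in the same order, and 7.33% in host microglia (60 of 819, 5.64 to 9.33). Ccl5 took 49.2%, 63.9%, 69.6% and 74.3% in the donor-derived groups and 86.0% in host. The shares of a group add up to the whole, so that the Igkc share in monocyte-derived leptomeningeal macrophages lowers the other shares there. In CPM, Ccl5 averaged highest in that group, at 673 ± 148 (SD, n = 4). The intervals cover counting error only and were taken over counts pooled by group.

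**Figure D3:**
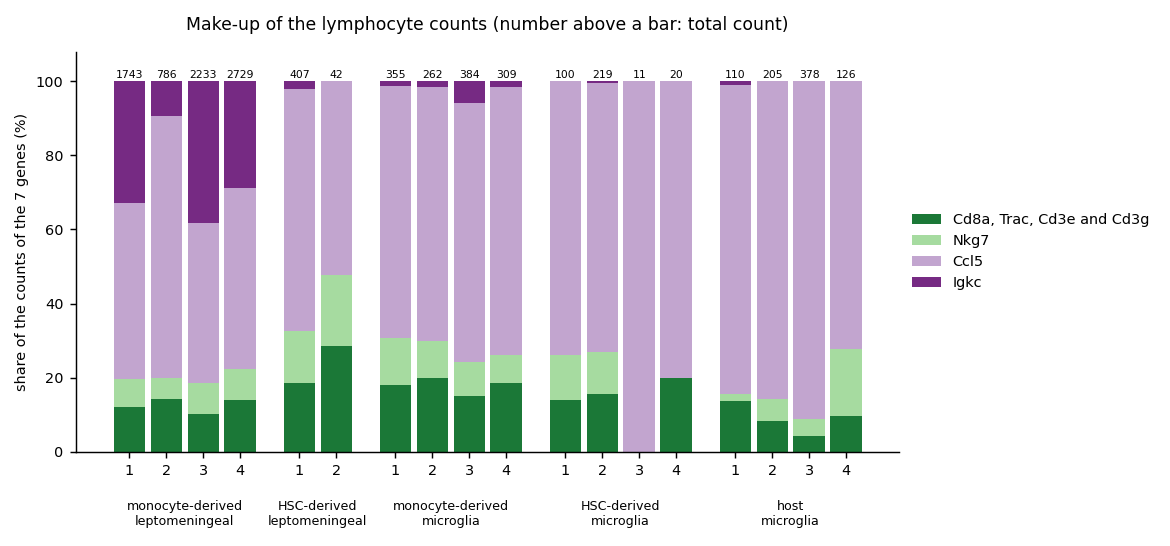
Share of the counts of the 7 genes taken by the T cell receptor and coreceptor genes, Nkg7, Ccl5 and Igkc in each library, in percent, with the total count of the 7 above each bar. Igkc fills a visible part of all 4 monocyte-derived leptomeningeal bars, least in library 2, and the bars of host microglia are mostly Ccl5.

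Other lymphocyte genes were read from 3 lists of T cell, NK and cytotoxic, and B and plasma cell genes, 57 of whose 76 genes are in the table and 43 passed the filter. A gene could pass that filter on the libraries of 1 group alone, such as monocyte-derived leptomeningeal macrophages. Counts of genes called higher in such a group are partly set by the filter. The share of all genes given beside them is therefore no test of the lists. In T cells, Thy1 encodes a surface glycoprotein, Cd3d another CD3 chain, Trbc1 and Trbc2 the constant regions of the receptor's beta chain and Lck a kinase of receptor signalling. Monocyte-derived leptomeningeal macrophages against microglia of that origin had 20 of 21 T cell genes called higher, against 19% of all genes. The median log2 fold change was 2.50 against -0.04 over all genes. Thy1 averaged 131 ± 50.3 CPM against 24.9 ± 4.39 CPM in microglia (SD, n = 4 each; log2 fold change 2.41, edgeR adjusted p = 6.53e-09). Cd3d followed with 2.33 (edgeR adjusted p = 1.39e-07) and Lck with 2.37 (edgeR adjusted p = 3.02e-07). Among HSC-derived cells 8 of 21 were called higher, against 5.75% of all genes, with a median of 2.21. Thy1 (2.30, edgeR adjusted p = 0.000831) and Cd3d (2.21, edgeR adjusted p = 0.00847) were among them, and none of the 43 was called without leptomeningeal library 1.

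Against host microglia, 13 of 21 T cell genes were called higher in monocyte-derived microglia, against 15.1% of all genes. The median log2 fold change was 1.66 against 0.01 over all genes. Ms4a4b, a T cell membrane protein gene, averaged 23.5 ± 2.99 CPM against 2.01 ± 0.577 CPM in host (SD, n = 4 each; log2 fold change 3.40, edgeR adjusted p = 8.64e-06). Thy1 was higher by 1.99 (edgeR adjusted p = 3.00e-05) and Cd3d by 2.02 (edgeR adjusted p = 0.000628), and none of these 3 calls was lost under the alternatives. In HSC-derived microglia 8 of 21 were called higher, against 16.2% of all genes, with a median of 1.19. Ms4a4b (2.98, edgeR adjusted p = 0.00111) and Thy1 (1.46, edgeR adjusted p = 0.0183) were among them. Without HSC-derived library 2 the 3 lists gave 7 calls in place of 16, and Thy1 was not called without that library, without host library 3 or with library totals alone (log2 fold changes from 0.94 to 1.66 over the alternatives). Ccr7, the homing receptor of naive T cells and migrating dendritic cells, had no count in host microglia, 12 counts in monocyte-derived microglia, where it was at least 5.64-fold higher, and 8 in HSC-derived microglia, where it was at least 11.2-fold higher. Monocyte-derived library 3 held 9 of the 12, and without it the gene was not called there (edgeR adjusted p = 0.0600). The bound for monocyte-derived microglia was 1.89-fold without that library. Without host library 3 the bounds were 3.62-fold and 7.20-fold. Between the 2 donor origins no T cell gene was called by edgeR or DESeq2 in microglia or in the leptomeninges. Over all genes edgeR called 1.89% and 0.302% there, so that the lack of a call says little about the T cell genes.

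NK and cytotoxic genes were called in the same 4 comparisons. All 15 tested, of 20 in the table, were called higher in monocyte-derived leptomeningeal macrophages than in microglia of that origin, against 19% of all genes. The median log2 fold change was 2.13. Some of the 15 passed the filter through leptomeningeal libraries alone, so that this count is a description. Klrk1, which encodes the activating receptor NKG2D, differed by 2.33 (edgeR adjusted p = 8.07e-09). Gzma, a granule protease gene, differed by 3.00. It was among those kept by the leptomeningeal libraries, at 21.6 CPM or more there and at most 5.16 CPM in monocyte-derived microglia. Among HSC-derived cells 2 of 15 were called higher, against 5.75% of all genes. They were Klrk1 (1.93, edgeR adjusted p = 0.000926) and Klrd1, which encodes the receptor CD94 (1.71, edgeR adjusted p = 0.00395). In monocyte-derived microglia 10 of 15 were called higher than in host, against 15.1% of all genes, with a median of 1.94. In HSC-derived microglia 6 of 15 were, against 16.2% of all genes, with a median of 1.82.

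Klrk1 and Klrd1 were the genes of that list with the smallest p against host. Klrd1 averaged 11.3 ± 2.95 CPM in monocyte-derived microglia, 16.5 ± 8.79 CPM in HSC-derived microglia and 0.610 ± 0.607 CPM in host microglia (SD, n = 4 each), with log2 fold changes over host of 4.23 (edgeR adjusted p = 4.43e-08) and 4.94 (edgeR adjusted p = 1.57e-08). Klrk1 had 54, 34 and 3 counts in the same groups, ratios over host of 25.4 (exact 95% interval 8.24 to 127) and 47.7 (15.0 to 243) per scaled count. Without host library 3 these ratios were 16.3 and 30.6, and without host library 1, which held 2 of the 3 counts, 62.8 and 118. Both were read in the shallow HSC-derived microglia libraries 3 and 4, Klrk1 at 15.3 and 19.5 CPM and Klrd1 at 15.3 and 7.78 CPM, where Cd8a, Cd3e, Cd3g and Nkg7 had no count. In these libraries 1 count was 5.10 and 3.89 CPM, so that these levels rest on few counts. HSC-derived library 4 still held Trac at 15.6 CPM and Trbc1 at 35.0 CPM (4 and 9 counts), and library 3 held neither.

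Some B and plasma cell genes were detected in all 18 libraries and others were read mainly in monocyte-derived leptomeningeal libraries, with Ighd and Tnfrsf17 in neither set. Ighd, a heavy chain gene, averaged 18.2 ± 5.25 CPM in host, 17.2 ± 4.46 in monocyte-derived and 9.80 ± 4.31 in HSC-derived microglia (SD, n = 4 each). It averaged 12.5 ± 3.03 and 4.27 ± 6.04 CPM in monocyte-derived and HSC-derived leptomeningeal macrophages (SD, n = 4 and 2). Ighm, the mu heavy chain gene, lay between 389 and 738 CPM in all 18 libraries, host included, and Cd79b, Cd22 and Bank1 were also detected in all 18. Those 4 genes gave no call between monocyte-derived and HSC-derived cells, and Ighm differed by 0.48 between monocyte-derived leptomeningeal macrophages and microglia (edgeR adjusted p = 0.015), a call lost when leptomeningeal library 1 or 3 was left out or libraries were scaled by totals alone (log2 fold changes from 0.18 to 0.58 over the alternatives). Ms4a1, which encodes the B cell surface protein CD20, was detected in all 4 monocyte-derived leptomeningeal libraries, at 2.79 to 5.46 CPM, and outside them in 1 library, with 1 count in monocyte-derived microglia 4. Jchain, the joining chain of secreted antibodies, read 50.3, 1.09, 38.7 and 7.36 CPM in the monocyte-derived leptomeningeal libraries, low in library 2 as Igkc was. Jchain passed the filter only through libraries 1 and 3 of this group, where it was high. Its call over microglia of that origin (log2 fold change 3.51, 145 counts against 12) is therefore a description. The gene had a result in 12 of the alternatives, where others had 14. Ighg2b, a gamma heavy chain gene, read 0, 4.37, 2.54 and 404 CPM in those libraries, so that 1 library held nearly all of its counts.

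In the counts of that list, 4 of 7 tested genes were called higher in monocyte-derived leptomeningeal macrophages than in microglia of that origin, against 19% of all genes. The median log2 fold change was 0.48. Tnfrsf17, the receptor gene BCMA of plasma cells, was lower in both donor-derived microglia groups than in host, at 6.44 ± 2.08 and 2.32 ± 2.18 against 27.5 ± 3.58 CPM (SD, n = 4 each), with log2 fold changes of -2.10 (edgeR adjusted p = 4.43e-08) and -3.64 (edgeR adjusted p = 8.61e-08). No other B and plasma cell gene was called lower in either comparison, and Cd79b alone was called higher, in HSC-derived microglia by 0.59 (edgeR adjusted p = 0.0386), a call lost in 10 of 14 alternatives that left the difference between 0.30 and 0.72.

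**Figure D4:**
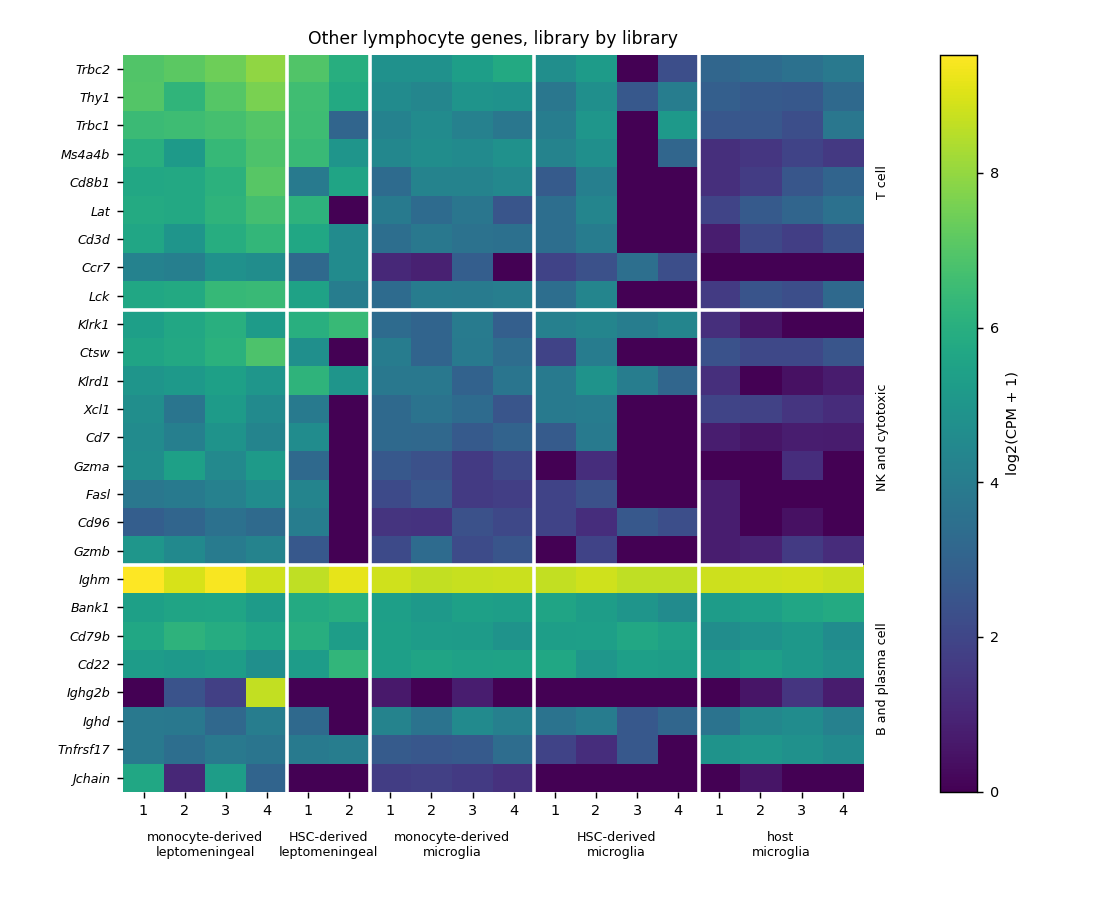
Level of 26 other lymphocyte genes in each library as log2(CPM + 1), from dark (0) to yellow, genes in rows by list and libraries in columns by group. Most T cell and NK rows are bright in monocyte-derived leptomeningeal columns and dark in host columns, many are at 0 in the shallow HSC-derived microglia 3 and 4, Ighm, Bank1, Cd79b and Cd22 are read in every column, and Ighg2b is bright in monocyte-derived leptomeningeal library 4 alone.

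Summed over their genes, the T cell list held 714 to 1504 CPM in monocyte-derived leptomeningeal libraries, 307 to 857 CPM in HSC-derived ones, 185 to 244 CPM in monocyte-derived microglia, 20.4 to 277 CPM in HSC-derived microglia and 57.0 to 102 CPM in host microglia. The NK and cytotoxic list held 324 to 434, 138 to 311, 74.6 to 85.6, 40.8 to 126 and 12.7 to 19.9 CPM in the same order. Host microglia thus lay below every donor-derived library for the NK list, and below every one except HSC-derived microglia 3 for the T cell list. In HSC-derived microglia 3 and 4 the NK sums rested on 8 and 12 counts, in library 3 mostly of Klrk1 and Klrd1. In the same group 4 genes of the NK list had no count in any library, so that the sum does not speak for each gene. The B and plasma cell list held 711 to 1044, 577 to 774, 542 to 603, 502 to 589 and 579 to 642 CPM in that order. Ighm was its highest gene in all 18 libraries, and Ighg2b added 404 CPM to the library at 1044 CPM.

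Markers of other cell types differed between groups too. Dendritic cell and monocyte sums, like most of these genes, were higher in leptomeningeal macrophages than in microglia and had their lowest mean in host microglia. Between origins the dendritic cell sum averaged higher in HSC-derived cells, at 810 against 661 CPM in the leptomeninges and 152 against 109 CPM in microglia. The monocyte sum did so in microglia (290 against 245 CPM). The dendritic cell list (9 genes in the table) summed to 595 to 721 CPM in monocyte-derived leptomeningeal macrophages, 567 to 1052 CPM in HSC-derived ones, 99.6 to 122 CPM in monocyte-derived microglia, 107 to 208 CPM in HSC-derived microglia and 87.5 to 107 CPM in host microglia. The monocyte list (11 genes) summed to 1533 to 2044, 774 to 1365, 209 to 304, 198 to 396 and 80.5 to 118 CPM. The neutrophil list (10 genes), S100a8 and S100a9 among them, summed to 1364 to 3093 CPM in monocyte-derived leptomeningeal libraries, 169 to 325 CPM in HSC-derived ones, 120 to 188 CPM in monocyte-derived microglia, 62.3 to 127 CPM in HSC-derived microglia and 227 to 374 CPM in host microglia. The order thus turned among microglia, where host was highest, with Csf3r, a receptor gene, at 226 to 374 CPM in host and 8 of the 10 genes at 0 in every host library. In HSC-derived leptomeningeal macrophages, monocyte-derived microglia and HSC-derived microglia 5, 0 and 6 of the 10 were at 0 in every library. Leptomeningeal library 2, the lowest for Igkc, held 2704 CPM of the neutrophil list, above library 1 with 1364 CPM. The stroma, glia, neuron and erythroid list summed to 307 to 1056, 839 to 3496, 123 to 490, 120 to 1223 and 2442 to 3734 CPM in the 5 groups in the same order. This sum was again highest in host among microglia, and Ttr, the transthyretin gene of the choroid plexus, held 1927 to 3251 CPM of it there. The median log2 fold change of its genes over host was 0.32 in monocyte-derived and 1.35 in HSC-derived microglia, so that the median gene did not follow the sum. The part of these cell types in the levels of the 7 genes was not tested.

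**Figure D5:**
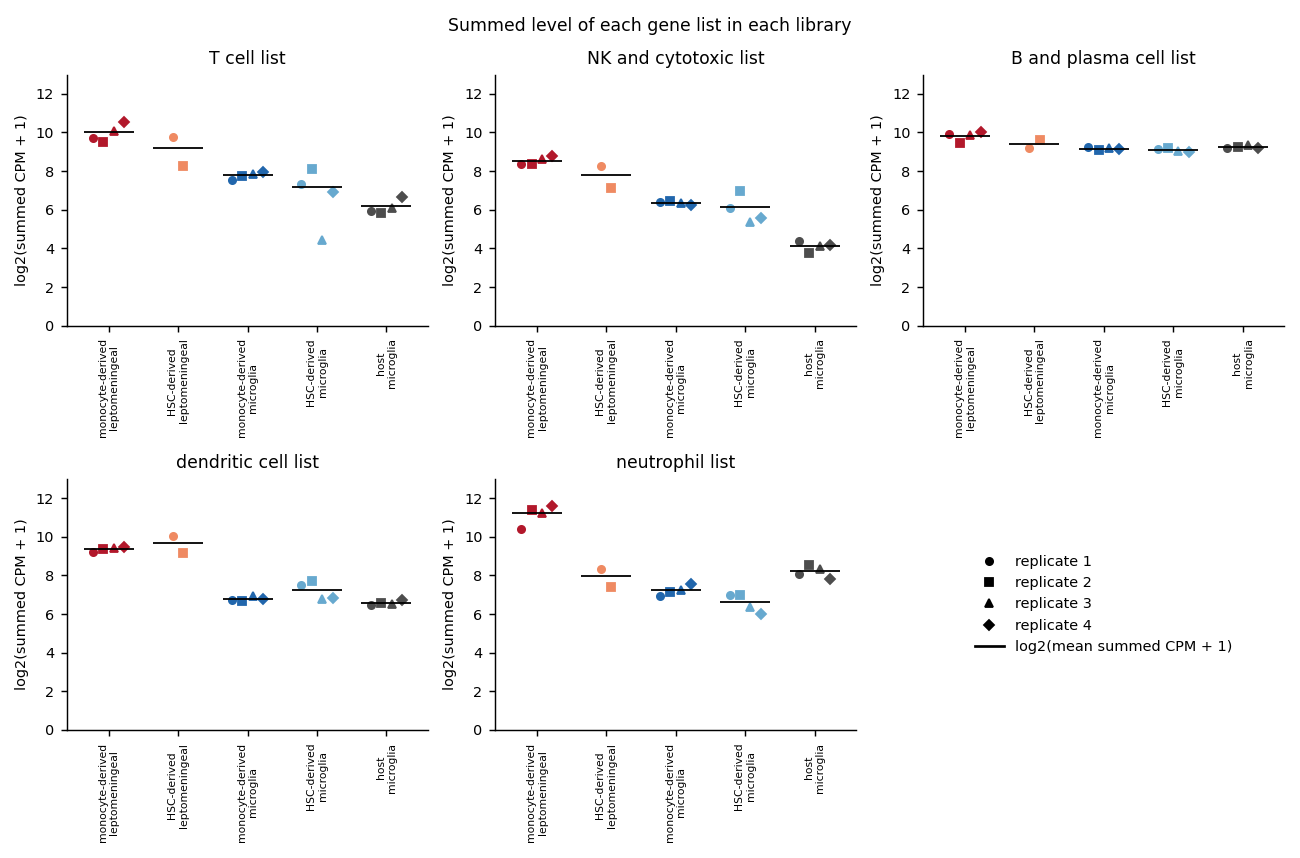
Summed level of 5 marker lists in each library as log2(summed CPM + 1), with marker shapes for replicate numbers and lines for log2 of the mean plus 1. T cell, NK and dendritic cell sums are highest in both leptomeningeal groups, and the neutrophil sum stands out in monocyte-derived leptomeningeal libraries only.

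Across the 18 libraries the 7 genes followed each other, with Pearson's r of log2 CPM from 0.673 between Cd3e and Igkc to 0.963 between Cd8a and Nkg7. These values describe libraries that share depth, compartment and origin, and zeros in the shallow ones. The genes most like each of the 7 among all those tested were Cd3d (0.974), Trbc2 (0.970) and Ptprcap (0.968) for Cd8a, and Cd3d (0.985), Lck (0.969) and Cd8a (0.963) for Nkg7. Trac was closest to Skap1 (0.960), Thy1 (0.955) and Il1rn (0.950), and Cd3g to Cd6 (0.959), Nedd9 (0.927) and Bcl3 (0.922). Cd3e was closest to Vav3 (0.943), Emb (0.932) and Nr4a3 (0.931). Ccl5 came closest to Grap2 (0.966), Fos (0.953) and Acap1 (0.952). Igkc, like Cd3e and Ccl5, had none of the listed lymphocyte genes among its closest 3. These were Clec4e (0.954), Pglyrp1 (0.953) and Slfn4 (0.935) for Igkc, of which Pglyrp1 encodes a granule protein of neutrophils and Clec4e a receptor of activated myeloid cells.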

How the data were processed

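RNA of sorted brain macrophages was counted in 18 libraries. The table the authors deposited holds molecule (UMI) counts for each gene, whole numbers that were not normalized; per the labels the protocol was bulk MARS-seq with oligo(dT) capture and actinomycin D, and per the submitters' processing notes the build was mm10. No aligner, counting program or use of strand is given in the sources used here. Of the library columns, 2 without a described sample were not used, and scaled versions of the table were not used either.

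Low genes were removed with filterByExpr, and the fit used edgeR 4.0.16 under R 4.3.3 with limma 3.58.1. Libraries were scaled by TMM, and all 18 were fitted in 1 quasi-likelihood model with a coefficient per group and robust dispersion; the common biological coefficient of variation was 0.161. Tests were two-sided with Benjamini-Hochberg adjustment over 10597 genes and a threshold of 0.05. Ratios with 1 to 3 counts in a group carry exact 95% intervals, and a group at 0 was taken at 3 counts over the group. Alternatives were DESeq2 1.42.0, 2 other scalings, no filter, a replicate block, and leaving out libraries. The fit was tested on simulated data with 200 changed genes.

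The genes described, the lists and the motifs were chosen with earlier results of these data known. Named list genes were the 6 with the highest mean CPM in each lymphocyte list plus up to 3 more with the smallest p in monocyte-derived against host microglia; for each gene described, the 3 genes with the highest Pearson's r of log2 CPM (prior count 2) were named. Ms4a1 was named outside the rule for list genes, and some genes of the lists are not reported by name here. Nothing in the labels ties replicates to separate mice; p-values therefore measure the spread between these libraries, which may be technical. The lowest chi-square per degree of freedom between replicates was 1.39, so that none was a copy of another. Counting intervals cover counting error only.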

Additional observations from a re-analysis of the deposited data

Results flagged for a closer look

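Among 144 groups of 4 libraries tested for a library far from the rest, 11 had one. The limit was set so that chance alone gives about 1 in 20. A gene with counts in only 1 library of its group always passes that limit, so that the 11 cannot be set against this rate. Ccl5 reached 893 CPM in monocyte-derived leptomeningeal library 4, where the next library held 612 CPM. Ighg2b reached 404 CPM in the same library, where the next held 4.37 CPM. Igkc reached 16.0 CPM in monocyte-derived microglia 3, where the next held 3.97 CPM.

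The other 8 were in HSC-derived or host microglia and mostly rested on few counts. In HSC-derived microglia 2, Igkc stood at 1.37 CPM, Gzma at 1.37 CPM and Gzmb at 2.73 CPM, each with the other 3 libraries at 0. In host microglia, Igkc stood at 0.712 CPM and Fasl at 0.712 CPM in library 1, Jchain at 0.452 CPM in library 2 and Gzma at 1.40 CPM in library 3, each with the others at 0. Trbc1 stood at 12.7 CPM in host library 4, where the next library held 4.98 CPM.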

How the results depend on the processing

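No difference called with the settings used throughout reversed its direction under an alternative, over the counts and named genes recomputed. Without the 3 shallow libraries the order of mean levels of Nkg7 and Cd3e between the donor-derived microglia groups, not called, turned. That of Cd3e between the leptomeningeal groups, also not called, turned too. Of the 7 genes described, HSC-derived against host microglia had 3 called and 1 with library totals alone; monocyte-derived against HSC-derived leptomeningeal macrophages had 0 called and 1, Igkc, with DESeq2. All genes called between the 2 donor-derived microglia groups numbered 200, and 124 with library totals alone, 552 with DESeq2 and 50 without the 3 shallow libraries; between the leptomeningeal groups they numbered 32, and 61 with DESeq2 and 72 without the shallow libraries. The listed lymphocyte genes called in HSC-derived leptomeningeal macrophages against microglia numbered 11, and 19 without the shallow libraries.

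Leaving out 1 library at a time gave, for monocyte-derived against host microglia, 2591 to 2865 of 3201 calls over all genes, 19 to 22 of 24 over the lists and 4 to 5 of 6 over the genes described. HSC-derived against host microglia gave 2613 to 2903, 7 to 14 and 0 to 3. Monocyte-derived against HSC-derived microglia gave 31 to 555, 0 and 0, and the same origins in the leptomeninges 12 to 90, 0 and 0 to 1. Leptomeningeal macrophages against microglia gave 3137 to 3745, 33 to 38 and 7 for monocyte-derived cells, and 363 to 1241, 0 to 17 and 0 to 5 for HSC-derived cells.

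Whether replicate numbers pair libraries could not be told. In monocyte-derived leptomeningeal macrophages against microglia, deviations of same-numbered libraries correlated between 0.0143 and 0.0575, and of others between -0.0443 and 0.0257. In comparisons among microglia, same-numbered ones lay between -0.0411 and 0.0406 and others between -0.0497 and 0.0834. A group of 2 libraries cannot decide it, since 2 deviations from a mean mirror each other. The widest range, -0.321 to 0.323, came from such a comparison. With a replicate block, Igkc was called between the leptomeningeal groups, 1 gene of the 7 against 0 without the block, and no other count of calls moved by over 1.5 times. Of the 7, the block also called Igkc and not Ccl5 in monocyte-derived against host microglia, and Igkc and not Trac in HSC-derived leptomeningeal macrophages against microglia.

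Scaling by library totals alone moved the median log2 fold change of all genes from 0.002 to -0.28 in HSC-derived against host microglia. Between the donor-derived microglia groups it went from 0.02 to 0.27. In leptomeningeal macrophages against microglia it went from -0.04 to -0.34 (monocyte-derived) and from -0.06 to -0.15 (HSC-derived). Between the leptomeningeal groups it went from 0.07 to 0.11. The share of calls that were higher was then 32.0% in place of 55.3%, 46.8% in place of 6.50% and 28.3% in place of 53.9% in the first 3 of these. Depth limits the HSC-derived groups most, since 3 counts are 15.3, 11.7 and 23.0 CPM in the shallow libraries. The cause of these shifts was not tested.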
